A study of Mus musculus with 22 samples.

Results

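The 43 genes described here encode proteins that carry a cell into and through mitosis, from the cyclins and CDK1 to kinetochore, spindle and condensin subunits. They were chosen by gene name, as a list of mitosis and kinetochore genes, and all 43 are among the 24454 gene symbols of the count table. The table holds 22 RNA-seq libraries, each made from 25 cells sorted by flow cytometry from the aorta-gonad-mesonephros (AGM) region of C57BL/6 mouse embryos. Cells were divided by CD44 and Kit, populations the study defined among VE-Cadherin positive cells. The 10 CD44Neg libraries came from embryonic day 9.5 (E9.5, n = 4), E10 (n = 3) and E11 (n = 3). The 6 CD44LowKitNeg libraries came from E9.5 (n = 1), E10 (n = 2) and E11 (n = 3). The 3 CD44LowKitPos libraries came from E9.5 (n = 1) and E10 (n = 2), and the 3 CD44High libraries from E11 alone. Nothing in the labels says whether libraries of 1 population came from separate embryos or litters, so the p-values measure only the spread between these libraries. A number in the sample descriptions that reads like a date follows the stage, and the 2 cannot be told apart.

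In the dividing cell, cyclin A and cyclin B activate the kinase CDK1, which drives entry into mitosis. Polo-like and Aurora kinases build the spindle, kinetochores attach chromosomes to it, and the spindle assembly checkpoint holds the cell until every chromosome is attached. The anaphase-promoting complex (APC/C), with its activator CDC20, then destroys cyclin B and securin, sister chromatids separate, and cytokinesis follows. Most of these genes are transcribed in G2 and M phase and are silent in resting cells, so their transcripts are widely used as a sign of cycling cells. In the AGM, endothelial cells of the dorsal aorta give rise to blood cells by the endothelial-to-haematopoietic transition, and the populations were sorted to follow that course. In libraries of 25 cells, fewer cells in mitosis and less mitotic RNA per cell cannot be told apart.

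Each library held counts for between 39 and 43 of the genes, and all 43 passed the filter on low counts in every comparison. Libraries held between 3912350 and 8657546 counts, and values are given below as CPM, the share of a library's counts scaled to a common total, after TMM scaling (normalised CPM). The 8 endothelial markers summed to between 3519 and 8666 normalised CPM in CD44Neg and CD44LowKitNeg, to between 766 and 1854 in CD44LowKitPos and to between 14.3 and 78.8 in CD44High, where Cdh5, the gene for VE-Cadherin, had no count in any of the 3 libraries. The 8 macrophage markers summed to between 1697 and 4562 normalised CPM in CD44High. In any other library they summed to at most 53.0, the value of CD44LowKitNeg replicate 14. Exons of 10 of the 43 genes overlap those of another gene of the table, 9 of them on the opposite strand (Ccna2, Cdc20, Cdc25b, Cdca8, Kif20a, Ncapg, Nusap1, Prc1 and Ube2c), and Ncapd2 contains smaller genes on its own strand. The counting is not stated to use strand, and reads from such a pair, for example Ccna2 and Exosc9, cannot be told apart there.

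The summed level of the 43 genes was lowest in the E11 CD44LowKitNeg libraries and similar in range in most of the others. The 10 CD44Neg libraries lay between 4670.3 and 10299 normalised CPM, with a median of 7427 and a mean of 7603 ± 1678 (SD, n = 10). The 3 E11 CD44LowKitNeg libraries held 1092, 2394 and 2539 normalised CPM, below every other library of the series. The remaining CD44LowKitNeg libraries held 6986 and 4556 at E10 and 13399.9 at E9.5, and this last value, of replicate 14, was the highest of all 22. The CD44LowKitPos libraries held 8091 and 4850 at E10 and 10319.7 at E9.5, spanning most of the CD44Neg range. The CD44High libraries, all of E11, held 10904, 11069 and 9508 normalised CPM, a mean of 10493 ± 858 (SD, n = 3). Without TMM scaling the CD44High mean was 8841 CPM.

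**Figure D1:**
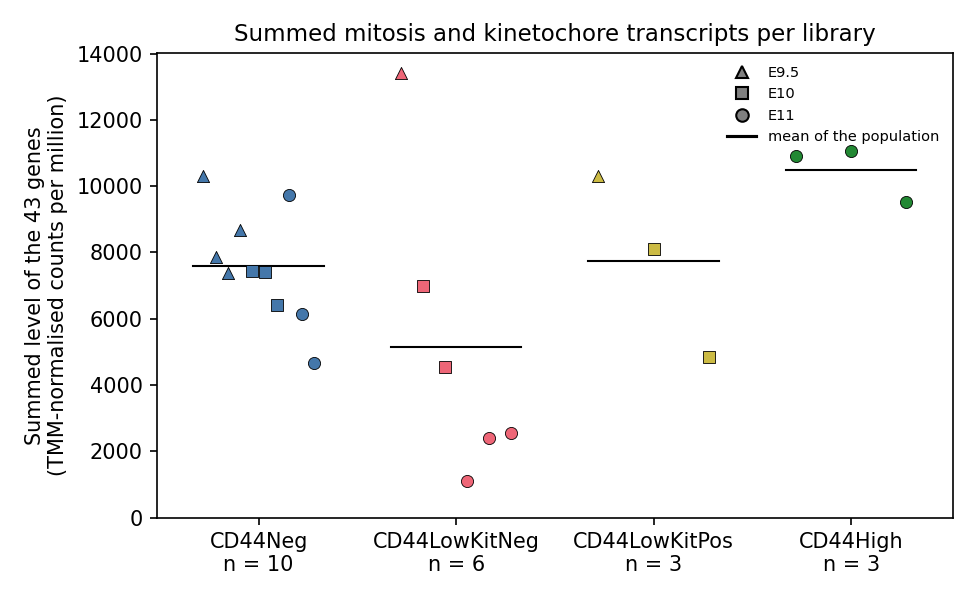
Summed level of the 43 mitosis and kinetochore genes in each library (y axis, normalised CPM) by population (x axis). Each symbol is 1 library, its shape gives the stage and the line is the population mean; the 3 E11 CD44LowKitNeg libraries sit between 1092 and 2539, below all others.

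Gene by gene, the lowest library was mostly an E11 CD44LowKitNeg library, while the highest varied. In 39 of the 43 genes the lowest of all 22 libraries was an E11 CD44LowKitNeg library, and in 36 it was replicate 11; among the 12949 genes tested over the 22 libraries the shares were 18.8% and 6.46%. In 20 genes all 3 of these libraries lay below all 19 others, as they did in 3.41% of all genes. These libraries were singled out after their levels were seen, and the counts are a description. The highest library was a CD44Neg library in 15 genes, CD44LowKitNeg replicate 14 in 14 genes, a CD44High library in 13 genes and a CD44LowKitPos library in 1 gene. Replicate 14 was the highest library in 4.05% of all genes. It also lay above all 10 CD44Neg libraries in 22 genes, against 16.2% of all genes.

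**Figure D2:**
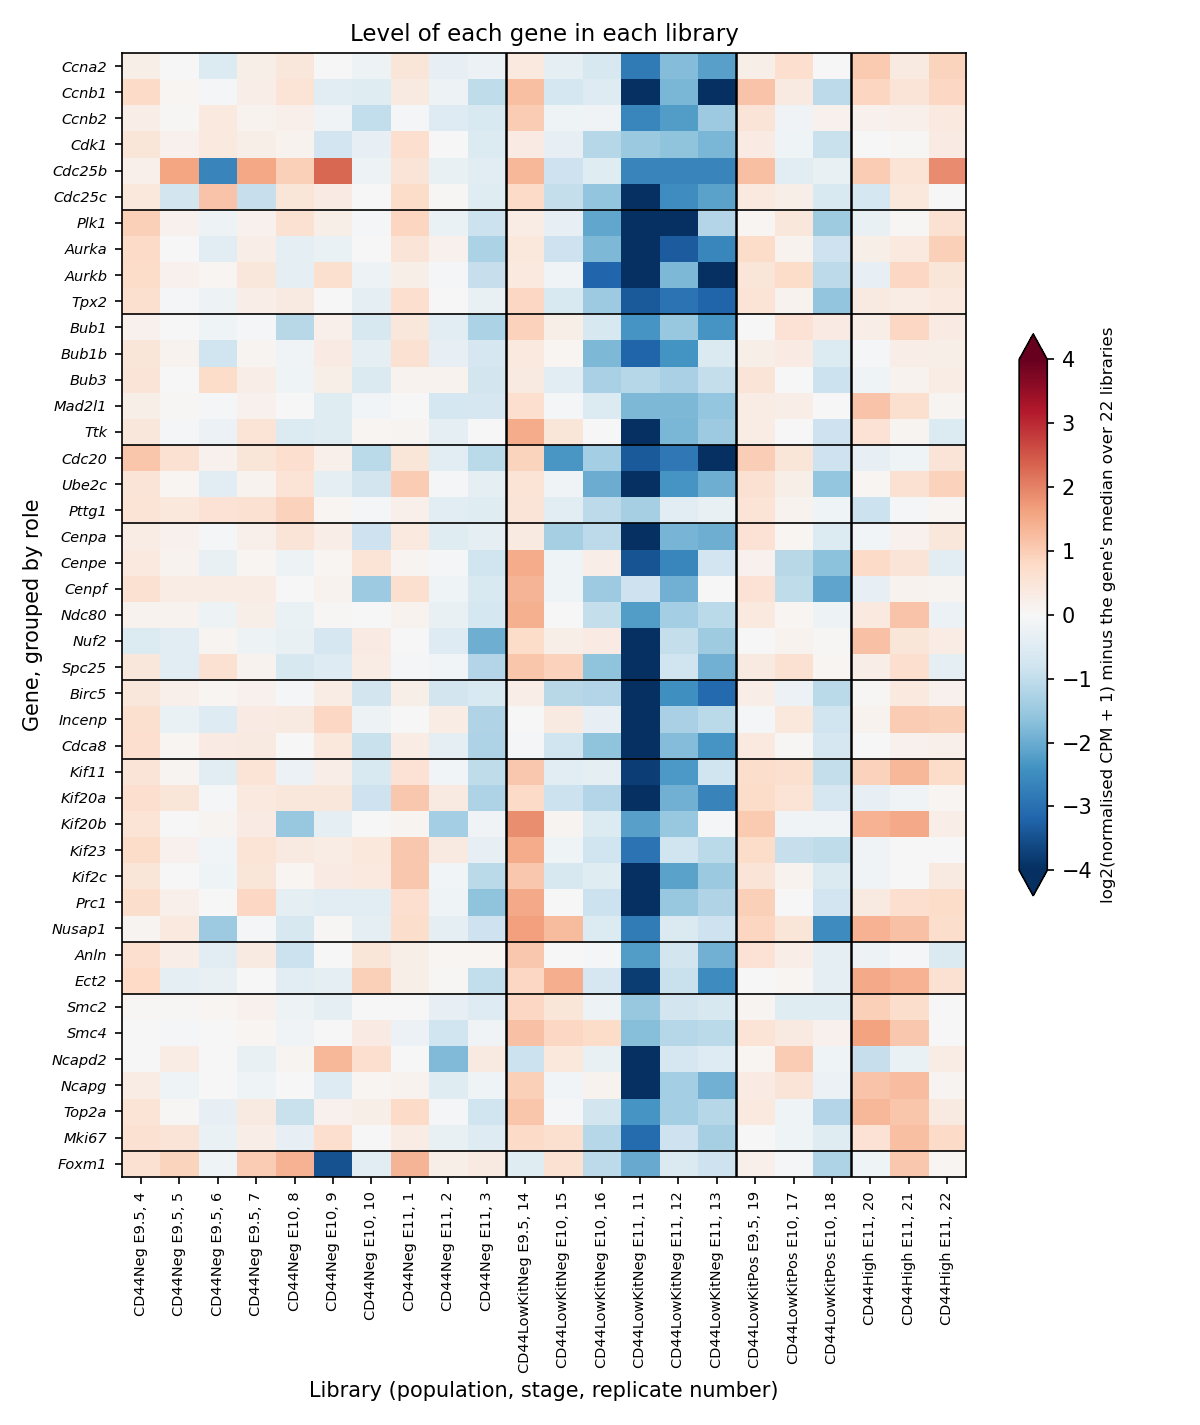
Level of the 43 genes (rows, grouped by role) in the 22 libraries (columns, by population, then stage), as log2(normalised CPM + 1) minus the gene's median over all libraries. Blue is below and red above that median; the 3 E11 CD44LowKitNeg columns are blue in nearly every row, and replicate 11 is the lowest library in 36 of 43.

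CD44LowKitNeg was compared first with CD44Neg, the endothelial population from which it differs by low CD44. With all stages pooled (6 against 10 libraries), none of the 43 genes was called at an adjusted p under 0.01, where 10.2% of the 11022 genes tested were called and 5.23% were called lower (edgeR's quasi-likelihood test, Benjamini-Hochberg adjustment). An unadjusted p under 0.05 was reached by 14 genes (32.6% of all genes tested), DESeq2 called 1 (15.9% of all genes) and limma-voom 8 (12.4%). The log2 fold change was negative in 38 of 43 genes, with a median of −0.68 against 0.01 over all genes tested. The smallest adjusted p belonged to Cdca8, a subunit of the chromosomal passenger complex (log2 fold change −1.39, SE 0.46, adjusted p = 0.0377). Replicate 14 decided this count: without it 11 genes were called, all lower, where 10.9% of 11215 genes were called in either direction, and without any 1 of the other 15 libraries none was.

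By role, the pooled differences ranged widely. The kinases and TPX2 had a median log2 fold change of −1.31 (4 genes), with Aurka, which builds the spindle poles, at −1.33 (SE 0.53, adjusted p = 0.0847) and Tpx2, its activator, at −1.10 (SE 0.50, adjusted p = 0.126). The chromosomal passenger complex stood at a median of −1.28, and Incenp, its scaffold, had the largest p there (−0.75, SE 0.58, adjusted p = 0.404). Of the APC/C group, median −1.07, Pttg1, which encodes securin, was at −0.68 (SE 0.27, adjusted p = 0.0874) and Ube2c, the ubiquitin-conjugating enzyme of the APC/C, at −1.07 (SE 0.50, adjusted p = 0.143). Foxm1, a transcription factor of G2 and M phase genes, was at −1.13 (SE 0.56, adjusted p = 0.17). Cyclins, CDK1 and the CDC25 phosphatases had a median of −0.88, with Cdk1 at −0.90 (SE 0.30, adjusted p = 0.0382) and Ccnb2 at −0.33 (SE 0.40, adjusted p = 0.619).

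The other roles lay closer to 0. Spindle motors and bundling proteins had a median of −0.47, with the smallest p for Kif20a, a motor of the spindle midzone (−1.24, SE 0.53, adjusted p = 0.102), and the largest for Prc1, which bundles midzone microtubules (−0.29, SE 0.55, adjusted p = 0.778). In 2 of these 7 genes the difference was positive, at 0.32 for Kif20b and 0.47 for Nusap1 (adjusted p = 0.673 and 0.525). The spindle assembly checkpoint had a median of −0.42, with Bub3 at −0.77 (SE 0.26, adjusted p = 0.0415) and Ttk, the checkpoint kinase MPS1, at −0.01 (SE 0.52, adjusted p = 0.993). Chromosome structure genes had a median of −0.37, with the condensin subunit Ncapd2 at −0.81 (SE 0.49, adjusted p = 0.268), Smc2, the condensin ATPase, at 0.00 (SE 0.25, adjusted p = 1) and Smc4, its partner, on the positive side at 0.28 (SE 0.33, adjusted p = 0.616). Both cytokinesis genes, Anln (−0.37, SE 0.37, adjusted p = 0.551) and Ect2 (−0.08, SE 0.52, adjusted p = 0.94), were far from the threshold. The centromere and kinetochore group had a median of −0.14, although Cenpa, the centromeric histone, was at −1.20 (SE 0.41, adjusted p = 0.0455) beside Nuf2 of the NDC80 complex at 0.06 (SE 0.49, adjusted p = 0.954). Replicate 14 also moved several of these values by over 1.5 times: without it Tpx2 stood at −2.02, Aurka at −2.16, Kif20a at −2.07, Cenpa at −1.81, Ube2c at −1.69, Prc1 at −1.14, Ccnb2 at −0.87 and Anln at −0.85, and Smc4, Kif20b and Nusap1 at 0.0075, −0.46 and −0.0080. Without replicate 11 Prc1 was at −0.03, Ccnb2 at −0.12, Anln at −0.16 and Incenp at −0.49.

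At E11 alone, with 3 libraries in each population, 5 genes were lower in CD44LowKitNeg than in CD44Neg and none was higher, where 1.52% of 11035 genes were called lower (edgeR's quasi-likelihood test). All 43 log2 fold changes were negative (48.6% of all genes tested), and the median was −1.75 against 0.03 over all genes. In 30 of 43 genes all 3 CD44LowKitNeg libraries lay below all 3 CD44Neg libraries, which 19% of all genes did. An unadjusted p under 0.05 was reached by 34 genes, against 25.3% of all genes. The mean CD44LowKitNeg level was between 9.34% and 74.3% of the CD44Neg mean in the 42 genes with a count, with a median of 28.5% over all 43. Leaving out 1 library at a time gave between 1 and 5 genes, with 1 called without CD44Neg replicate 1 or 2, where 0.87% and 0.906% of all genes were called in either direction. It gave 2 without CD44Neg replicate 3 (1.5% of all genes) or CD44LowKitNeg replicate 11 (2.29%), 3 without CD44LowKitNeg replicate 13 (1.46%) and 5 without replicate 12 (1.94%).

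The smallest p at E11 belonged to Tpx2, which activates Aurora A on spindle microtubules. It was measured at 275, 171 and 137 normalised CPM in CD44Neg and at 15.9, 21.1 and 17.5 in CD44LowKitNeg. The populations did not overlap and the CD44LowKitNeg values lay close together, a difference of −3.36 in log2 (SE 0.32, adjusted p = 0.00051, edgeR).

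Ccna2 encodes cyclin A2, which acts in S phase and at mitotic entry. Its levels were 344, 198 and 211 normalised CPM in CD44Neg against 34.1, 73.4 and 54.8 in CD44LowKitNeg, again without overlap (log2 fold change −2.15, SE 0.33, adjusted p = 0.00494, edgeR). Cdk1, its catalytic partner, was lower as well, at 630.0, 400.0 and 272 normalised CPM in CD44Neg against 141, 129.6 and 111.5 in CD44LowKitNeg (−1.71, SE 0.29, adjusted p = 0.00718, edgeR). The lowest CD44Neg library, at 272, was above the highest of CD44LowKitNeg.

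Birc5, which encodes survivin, the subunit that brings Aurora B to the centromere, was at 458, 233 and 254 normalised CPM in CD44Neg and at 21.1, 69.5 and 44.5 in CD44LowKitNeg (log2 fold change −2.75, SE 0.44, adjusted p = 0.00578, edgeR). Cdc20, the APC/C activator, was at 390.0, 204 and 131 in CD44Neg and at 26.1, 37.4 and 7.44 in CD44LowKitNeg (−3.29, SE 0.59, adjusted p = 0.00944, edgeR). In both genes the highest CD44LowKitNeg library was below the lowest CD44Neg library. Of the 5 calls, that of Tpx2 was kept in all 6 fits that left out 1 library. That of Birc5 was lost in 4 of them, those of Ccna2 and Cdk1 in 5 and that of Cdc20 in all 6. The adjusted p of Cdc20 was then between 0.0151 and 0.0424 (edgeR). The log2 fold changes stayed negative in these fits, between −3.21 and −2.39 for Birc5 and −2.44 and −1.87 for Ccna2. They were between −1.97 and −1.36 for Cdk1 and −3.79 and −2.78 for Cdc20.

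The other genes with lower levels in every E11 CD44LowKitNeg library did not pass the threshold, and several were close to undetected in 1 library. Plk1, the Polo-like kinase that controls centrosome maturation, was at 1.34, 7.37 and 61.7 normalised CPM against 254, 116 and 75.4 in CD44Neg (adjusted p = 0.16). The mean of Aurka was 9.61% of its CD44Neg mean (adjusted p = 0.0119). Cdc25b, a phosphatase that activates CDK1, had no count in the 3 CD44LowKitNeg libraries and a mean of 5.20 ± 2.40 normalised CPM (SD, n = 3) in CD44Neg, at least 12.4-fold higher than the floor of 3 counts per library.

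Some genes kept a larger share of their E11 CD44Neg mean. The highest shares were those of Pttg1 (74.3%), Kif20b (64.4%), Smc2 (63.1%), Cenpf (58.7%), Smc4 (52.6%), Ncapd2 (52.4%) and Bub3 (49.1%). Pttg1, securin, was at 24.9, 46.7 and 52.0 normalised CPM in E11 CD44LowKitNeg and at 73.1, 47.5 and 45.8 in E11 CD44Neg, so the ranges overlapped (log2 fold change −0.37, SE 0.38, adjusted p = 0.619, edgeR). Smc2 was at 101, 172 and 184 against 292, 228 and 202, with no overlap but a mean share of 63.1%. Bub3, a checkpoint protein also present outside mitosis, was at 136, 122 and 155 against 329, 331 and 181 (−0.97, SE 0.25, adjusted p = 0.0415).

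**Figure D3:**
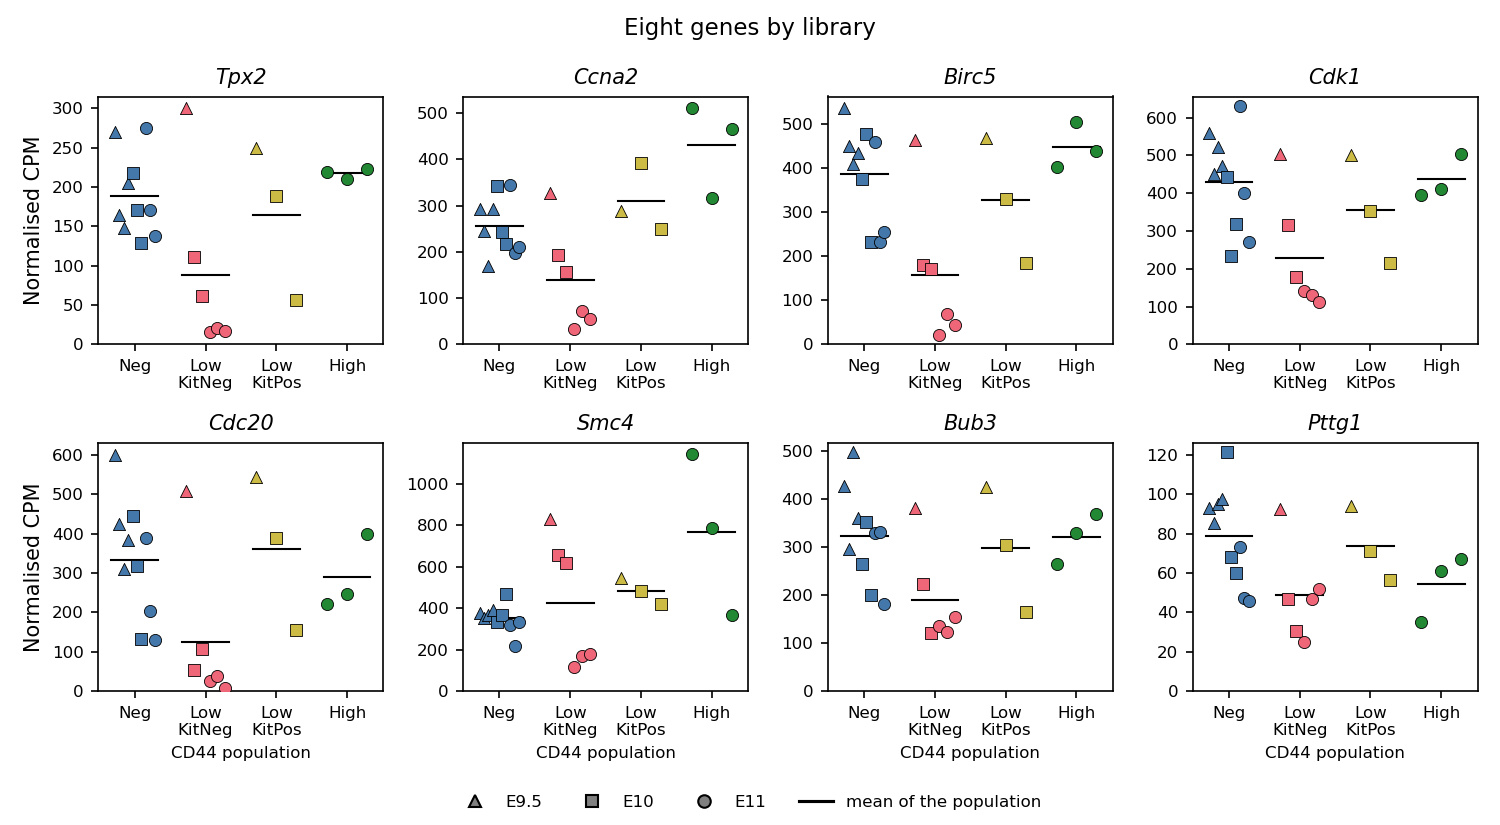
Normalised CPM (y axis) of 8 of the genes in each library by CD44 population (x axis), with symbols for the stage and a line at the population mean. Tpx2, Ccna2, Birc5, Cdk1 and Cdc20 passed the test at E11. Smc4 passed it in the opposite direction at E9.5 and E10. Bub3 and Pttg1 are shown because they kept more of their E11 CD44Neg mean (49.1% and 74.3%) than the genes that passed at E11.

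At E9.5 and E10 the same 2 populations (3 against 7 libraries, stage as a covariate) did not show a common direction. The log2 fold change was positive in 22 genes and negative in 21, with a median of 0.13 against −0.02 over all genes. One gene was called, and it was higher in CD44LowKitNeg, where 2.38% of 11308 genes were called higher (edgeR's quasi-likelihood test). That gene, Smc4, encodes the partner of SMC2 in condensin. It was at 831, 655 and 616 normalised CPM in the early CD44LowKitNeg libraries and between 335 and 469 in the 7 early CD44Neg libraries, all of which lay lower, as 7.83% of all genes did (0.93, SE 0.15, adjusted p = 0.00194). Without replicate 14 the median was −0.31 and no gene was called, where 0.975% of 11789 genes were called in either direction; Smc4 then stood at 0.77 (adjusted p = 0.0377, edgeR). Nusap1, which stabilises spindle microtubules, had a larger difference with a larger error (1.32, SE 0.38, adjusted p = 0.0397), and Ttk stood at 0.91 (SE 0.25, adjusted p = 0.0343).

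**Figure D4:**
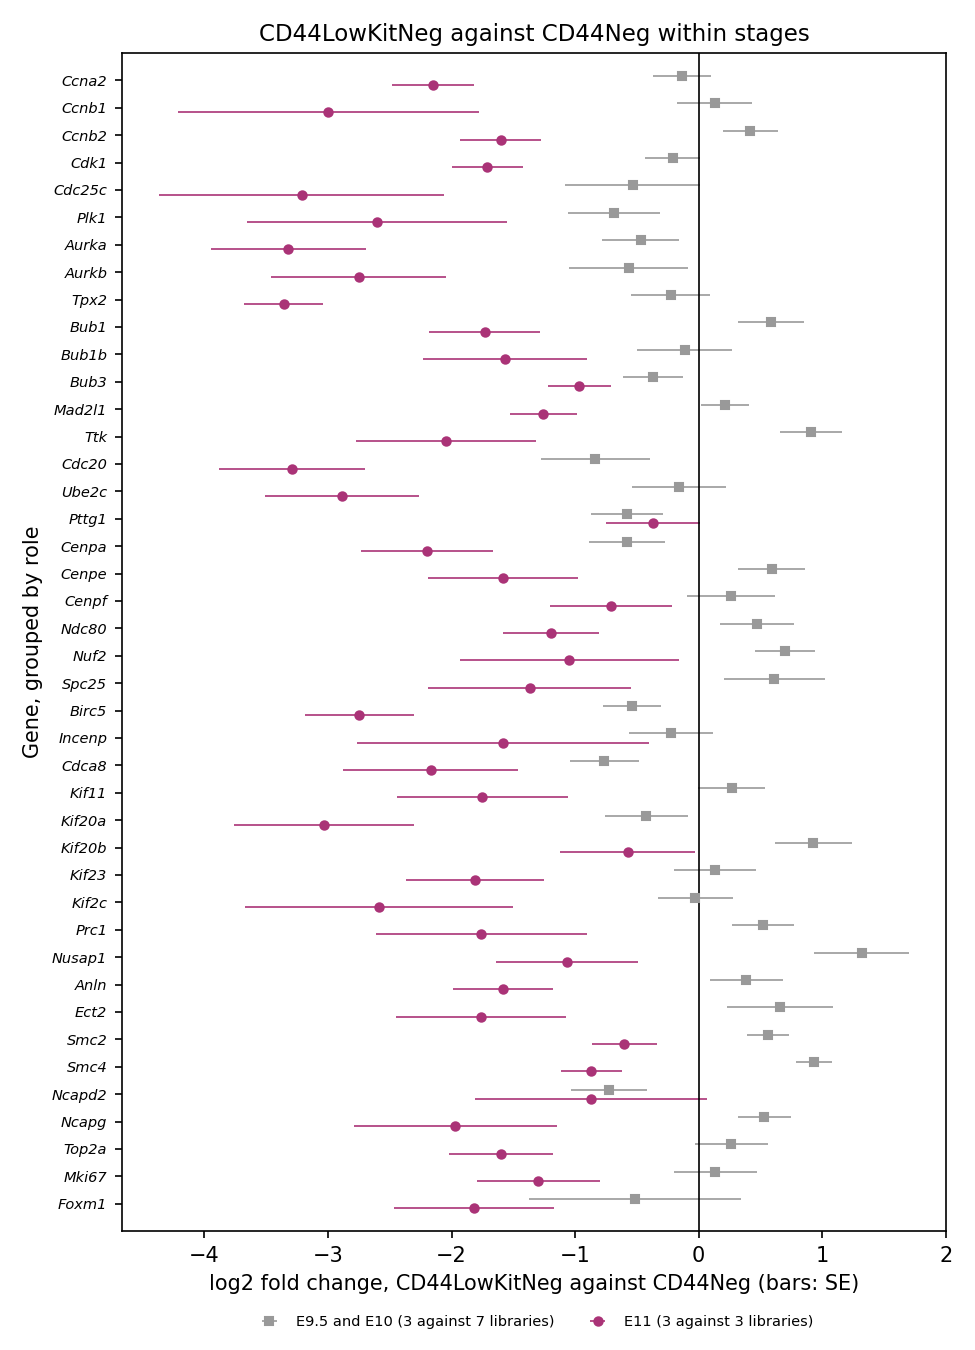
log2 fold change of CD44LowKitNeg against CD44Neg (x axis, bars are SE) for 42 of the genes (y axis, grouped by role), at E11 (circles) and at E9.5 and E10 (squares). Cdc25b is left out because it had no count in E11 CD44LowKitNeg; all E11 values are below 0, with a median of −1.75, and the earlier ones lie on both sides of 0.

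Whether the difference between the 2 populations itself differed between E11 and E10 was tested by an interaction term over 11 libraries. No gene of the 43 was called, and 1 of 12403 genes was (0.00806%, edgeR's quasi-likelihood test); 18 of the 43 had an unadjusted p under 0.05, against 10.7% of all genes, and DESeq2 called 2 (1.11% of all genes). The interaction was negative, that is CD44LowKitNeg was lower at E11 relative to CD44Neg than at E10, in 42 genes, with a median of −1.62 against −0.03 over all genes. The smallest p values belonged to Tpx2 (−2.43, SE 0.47, adjusted p = 0.0731), Smc4 (−1.64, SE 0.34, adjusted p = 0.0854), Ccna2 (−1.62, SE 0.45, adjusted p = 0.201), Ccnb2 (−1.75, SE 0.50, adjusted p = 0.212), Birc5 (−1.78, SE 0.57, adjusted p = 0.277) and Mad2l1 (−1.21, SE 0.39, adjusted p = 0.277). Over all 16 libraries, a fit chosen after seeing the data, E11 differed from the earlier stages for Tpx2 (−3.15, SE 0.49, adjusted p = 0.00356) and Smc4 (−1.82, SE 0.27, adjusted p = 0.00249), where 0.248% of 12093 genes were called.

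Several transcripts of other cell types differed between the 2 populations at E11, and some did so at the earlier stages as well. Of the 6 neural markers, Stmn2 alone made up nearly all of the summed level, which was 244 to 689 normalised CPM in E11 CD44LowKitNeg and 68.3 to 110.3 in E11 CD44Neg, and Sox2, Sox10 and Elavl3 had no count in any CD44LowKitNeg library. The 8 mesenchymal markers summed to between 29.2 and 99.1 normalised CPM in E11 CD44LowKitNeg against 0.465 to 17.2 in E11 CD44Neg, with Col1a1 and Lum at 0 in all CD44LowKitNeg libraries. The 8 haematopoietic markers summed to 4.49 to 16.1 normalised CPM in E11 CD44LowKitNeg and to 5.84 to 23.8 in E11 CD44Neg. In the earlier CD44LowKitNeg libraries they summed to 83.9 to 264. The 6 epithelial markers reached 27.4 to 87.2 in E11 CD44LowKitNeg and at most 2.14 in E11 CD44Neg, nearly all of it Krt18, and the 11 erythroid markers 32.2 to 61.3 against 5.56 to 23.7. Endothelial markers summed to 7229.5 to 8666 in E11 CD44LowKitNeg and 5662 to 5924 in E11 CD44Neg. At E9.5 and E10 the neural markers summed to 111 to 245 in CD44LowKitNeg and to 23.9 to 56.6 in CD44Neg. Ranges overlapped there for the epithelial (26.5 to 49.3 against 0.804 to 33.5) and erythroid markers (13.8 to 31.9 against 2.61 to 22.7). Those of the mesenchymal markers did too (4.19 to 14.7 against 0 to 36.7). The part of these differences in the lower mitotic transcripts was not tested.

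CD44High was then compared with CD44LowKitNeg. Pooled over stages (3 against 6 libraries), 1 gene was called, Ccna2, higher in CD44High, where 7.79% of 12949 genes were called higher (log2 fold change 1.62, SE 0.43, adjusted p = 0.0066, edgeR's quasi-likelihood test). Ccna2 was at 512, 317 and 465 normalised CPM in CD44High and ranged from 34.1 through a median of 115 to 327 in CD44LowKitNeg, so that the ranges overlapped at replicate 14. The direction was positive in 42 of 43 genes, with a median of 0.98 against 0.00 over all genes. Mad2l1, a checkpoint protein (1.23, SE 0.40, adjusted p = 0.024), Aurka (1.86, SE 0.64, adjusted p = 0.0325), Birc5 (1.5, SE 0.54, adjusted p = 0.0426), Top2a, the topoisomerase that untangles chromosomes (1.34, SE 0.49, adjusted p = 0.0445), and Cdca8 (1.45, SE 0.55, adjusted p = 0.0513) followed. Without replicate 14 the count was 14 (16.9% of all genes called in either direction), and in 11 of the 22 fits that left out 1 library it was 0, with between 9.87% and 15.2% of all genes called.

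At E11 alone (3 against 3 libraries) 19 genes were higher in CD44High than in CD44LowKitNeg and none was lower, where 7.11% of 11942 genes were called higher (edgeR's quasi-likelihood test). All 43 differences were positive, with a median of 2.40 against −0.03 over all genes, and in 40 genes the libraries did not overlap (24.4% of all genes). The 3 exceptions were Cenpf, Ncapd2 and Pttg1. This comparison shares its 3 CD44LowKitNeg libraries with the one against CD44Neg. Leaving out 1 library at a time gave between 13 and 17 genes, in fits that called between 10.1% and 12.6% of all genes in either direction.

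The called genes came from 8 of the 10 roles. They were 4 of the 6 cyclin and CDK genes, 3 of the 4 kinases, 4 of the 6 chromosome structure genes, 2 of the 5 checkpoint genes, 2 of the 6 kinetochore genes, 2 of the 3 APC/C genes, 1 of the 3 passenger complex genes and 1 of the 2 cytokinesis genes, and none of the 7 spindle motors and bundling proteins nor Foxm1. Tpx2 was at 219, 210 and 223 normalised CPM in CD44High (log2 difference from CD44LowKitNeg 3.47, SE 0.32, adjusted p = 3.67e-05). Top2a was at 849, 738 and 440.5 in CD44High and at 65.1, 130.4 and 152 in CD44LowKitNeg (2.44, SE 0.45, adjusted p = 0.00272). Cdc25b had a mean of 14.1 ± 7.33 normalised CPM (SD, n = 3) in CD44High, at least 33.6-fold above the floor of the libraries without a count. Beside these differences, all 8 macrophage markers were higher in CD44High in the pooled comparison, with C1qa, C1qb, C1qc and Adgre1 at 0 in every CD44LowKitNeg library, and their part in the result was not tested.

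CD44High was also set against CD44Neg. None of the 43 genes was called over all stages, where 14.4% of 12949 genes were (edgeR's quasi-likelihood test), DESeq2 called none, and 5 had an unadjusted p under 0.05 against 33.2% of all genes. The median log2 fold change was 0.33 against −0.02 over all genes. The smallest p values were those of Smc4 (1.12, SE 0.40, adjusted p = 0.043), Kif20b, a kinesin of cytokinesis (1.27, SE 0.52, adjusted p = 0.0818), Smc2 (0.69, SE 0.31, adjusted p = 0.112), Mad2l1 (0.81, SE 0.37, adjusted p = 0.121), Nusap1 (1.26, SE 0.58, adjusted p = 0.127) and Ect2, which activates RhoA at the cleavage furrow (1.17, SE 0.58, adjusted p = 0.163). Smc4 reached 1146 and 787 normalised CPM in 2 CD44High libraries and 368 in the other, against a CD44Neg range of 215 to 469. Without CD44High replicate 20 the log2 fold change was 0.63 for Smc4, 0.39 for Smc2 and 0.43 for Mad2l1. At E11 alone none was called (8.47% of 11942 genes), while with stage as a covariate Mad2l1, Kif20b, Smc2 and Smc4 were called higher (7.18% of 12949 genes), with log2 fold changes between 1.17 and 1.91; that fit carries stage effects over from the populations that have more than 1 stage.

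CD44LowKitPos, the Kit-positive cells with low CD44, was compared with each of the others. Against CD44LowKitNeg (3 against 6 libraries) none of the 43 genes was called, where 4.26% of 12949 genes were (edgeR's quasi-likelihood test), DESeq2 called none, and 5 had an unadjusted p under 0.05 against 27.2%. The direction was positive in 36 genes, with a median of 0.63 against −0.02 over all genes. The 6 smallest p values belonged to Ccna2 (1.15, SE 0.43, adjusted p = 0.0819), Cenpa (1.24, SE 0.50, adjusted p = 0.105), Cdca8 (1.31, SE 0.55, adjusted p = 0.117), Aurka (1.45, SE 0.64, adjusted p = 0.141), Cdc20 (1.55, SE 0.74, adjusted p = 0.178) and Aurkb, the passenger complex kinase (1.39, SE 0.69, adjusted p = 0.193). Without replicate 14, 4 genes were called higher, where 5.33% of 12879 genes were called in either direction, and Cdc20, Aurka and Cenpa stood at 2.96, 2.31 and 1.89. Within E9.5 and E10 the median was 0.07 and none was called (0.69% of 11881 genes); Smc4 and Nuf2 were lower in all 3 CD44LowKitPos libraries than in the 3 of CD44LowKitNeg, as were 12.8% of all genes.

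The contrast of CD44LowKitPos with CD44Neg (3 against 10 libraries) had the median closest to 0. None was called (3.48% of 12949 genes, edgeR's quasi-likelihood test), DESeq2 called none, none had an unadjusted p under 0.05 against 20.3% of all genes, and the median was 0.01 against −0.01 over all genes. The largest differences relative to their error were in Foxm1 (−0.85, SE 0.70, adjusted p = 0.567), Cenpe, a kinetochore motor (−0.71, SE 0.61, adjusted p = 0.595), Smc4 (0.45, SE 0.41, adjusted p = 0.617), Bub1, a checkpoint kinase (0.52, SE 0.48, adjusted p = 0.625), Kif23 (−0.57, SE 0.54, adjusted p = 0.644) and Cenpf (−0.56, SE 0.55, adjusted p = 0.658). Single CD44LowKitPos libraries moved several of these: without replicate 19 Cenpe stood at −1.41, Kif23 at −1.39 and Cenpf at −1.61, without replicate 18 Foxm1, Cenpe, Kif23 and Cenpf stood at −0.52, −0.39, −0.28 and −0.13, and without replicate 17 Kif23 and Cenpf stood at −0.30 and −0.33.

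CD44High and CD44LowKitPos, which share no stage, gave no call either (3.01% of 12949 genes, edgeR's quasi-likelihood test; DESeq2 called none), with 1 unadjusted p under 0.05 against 17.8% of all genes and a median of 0.40 against −0.02. Smc2 (0.87, SE 0.40, adjusted p = 0.248), Top2a (1.18, SE 0.59, adjusted p = 0.303), Mki67, which encodes the proliferation antigen Ki-67 (1.07, SE 0.58, adjusted p = 0.354), Ect2 (1.33, SE 0.78, adjusted p = 0.404), Cenpe (1.03, SE 0.73, adjusted p = 0.526) and Smc4 (0.67, SE 0.53, adjusted p = 0.584) came first. Without CD44High replicate 20 Smc2 was at 0.57, Cenpe at 0.68 and Smc4 at 0.17, and without CD44LowKitPos replicate 19 Cenpe was at 1.73. Population and stage cannot be told apart in this pair.

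Within CD44Neg, E11 was compared with E9.5 (3 against 4 libraries) to follow the endothelium over time. None of the 43 genes was called, where 0.684% of 11250 genes were (edgeR's quasi-likelihood test), DESeq2 called none, and 3 had an unadjusted p under 0.05 against 17.1%. The direction was negative in 37 genes, with a median of −0.27 against 0.03 over all genes. Pttg1 (−0.72, SE 0.28, adjusted p = 0.189), Mad2l1 (−0.50, SE 0.21, adjusted p = 0.235), Ccnb2 (−0.55, SE 0.24, adjusted p = 0.252), Cdc20 (−0.82, SE 0.39, adjusted p = 0.301), Birc5 (−0.52, SE 0.25, adjusted p = 0.32) and Cdca8 (−0.66, SE 0.33, adjusted p = 0.333) had the smallest p values. Without CD44Neg replicate 1 Mad2l1 was at −0.80, Cdc20 at −1.36, Birc5 at −0.91 and Cdca8 at −1.10, and without replicate 3 Cdc20 was at −0.53 and Cdca8 at −0.36. Pttg1 was at 92.9, 85.2, 95.1 and 97.6 normalised CPM at E9.5, above the 73.1, 47.5 and 45.8 of E11 in every library.

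Other cell cycle genes were counted in the same fits. Of 75 further mitosis genes, 2 (2.67%) were called lower in CD44LowKitNeg than in CD44Neg with stages pooled, a smaller share than the 5.23% of all genes, Pmf1 (log2 fold change −1.39, SE 0.26, adjusted p = 0.000719) and Spc24 (−1.83, SE 0.43, adjusted p = 0.00511), both kinetochore components, and Racgap1 followed (−1.13, SE 0.35, adjusted p = 0.0269); the median was −0.62 (edgeR's quasi-likelihood test). At E11 alone 6 of 74 were lower, Sgo1, Tacc3, Kpna2, Melk, Hmgb2 and Cks1b, with a median of −1.58, where 1.52% of all genes were called lower. Of 32 DNA replication genes 12 (37.5%, against 5.23% of all genes) were lower in the pooled comparison, among them Fen1, the flap endonuclease (−1.95, SE 0.26, adjusted p = 3.73e-05), and Mcm3, a subunit of the replicative helicase (−1.08, SE 0.18, adjusted p = 0.000347), and the median was −0.89. At E9.5 and E10 alone 5 of the 32 were lower (Mcm3, Mcm7, Cdc6, Rfc5 and Fen1), where 1.77% of 11308 genes were, and 28 of the 32 differences were negative, with a median of −0.58. Without replicate 14 none of the 32 was called (0.492% of 11789 genes called lower), 27 were negative and the median was −0.68, beside 30 negative and a median of −0.31 for the 43 genes.

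Complexes that also act outside mitosis were counted in the same fits, and none of these lists was tested against the 43 genes. Among 9 cohesin genes, 7 differences were positive in the pooled comparison and Nipbl, the cohesin loader, was called higher, as 4.94% of all genes were (0.74, SE 0.17, adjusted p = 0.00469), while at E11 none was called and the median was 0.37 (edgeR's quasi-likelihood test). Among 17 APC/C genes Anapc5 alone (5.88%) was called lower, near the 5.23% of all genes (−0.61, SE 0.14, adjusted p = 0.0032, edgeR). Of the 17 differences 13 were negative, with a median of −0.46. At E11 none was called, 13 were again negative, and the median was −0.31. Among 21 genes of the DREAM, MuvB, E2F and NF-Y factors none was called in either fit, with medians of 0.15 pooled and 0.15 at E11.

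Set against the replication genes, the mitosis genes were uneven in CD44LowKitNeg. The ratio of the 2 summed levels was between 1.22 and 2.02 in the 10 CD44Neg libraries. In CD44LowKitNeg it was 0.516, 1.03 and 2.15 at E11, 1.83 and 1.45 at E10 and 3.33 in replicate 14, whose replication genes, at 4020.4 normalised CPM, were below the 5202 to 6029.5 of the 4 E9.5 CD44Neg libraries and within the range over all CD44Neg stages only through an E11 library at 3836. Replicate 13 had the lowest replication sum of the series, 1178, and replicate 11 the lowest mitosis sum.

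**Figure D5:**
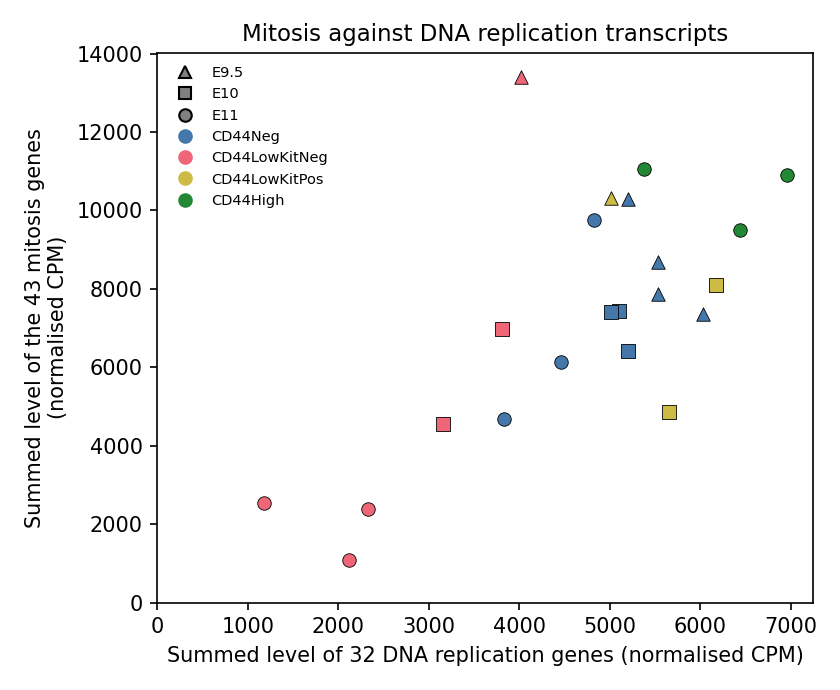
Summed normalised CPM of the 43 mitosis genes (y axis) against that of 32 DNA replication genes (x axis), 1 symbol per library, coloured by population and shaped by stage. The 3 E11 CD44LowKitNeg libraries are low on both axes, and replicate 14 stands highest on the y axis at 13399.9 with 4020.4 on the x axis.

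The 43 genes varied together among libraries of the same population. After subtracting each gene's population mean from its log2 CPM, the Pearson correlation of a gene with the mean of the other 42 over the 22 libraries had a median of 0.879 and was over 0.5 in 42 genes, against a median of 0.0195 and 7.88% over 0.5 among 12906 other genes. It was highest for Prc1, at 0.962, and lowest for Foxm1, at 0.341. In the 10 CD44Neg libraries alone, which hold none of the low libraries, the median was 0.684 and 31 genes were over 0.5. The 12906 other genes had a median of 0.0041 there, with 8.03% over 0.5. Of the 43 genes, Ncapd2 (−0.0275), Cdc25c (0.0933) and Foxm1 (0.105) were lowest. These are descriptions over libraries that share stage and depth, and stage differences within a population were not removed. Among genes outside the list, Ckap2l (0.963), Dlgap5 (0.947) and Hmmr (0.943) were closest to the mean of the 43 over the 22 libraries.

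The genes lie on 14 chromosomes, and their promoters, 250 bases before to 50 bases after the annotated start, were searched for letters of known G2 and M phase promoter elements. RefSeq promoters (GRCm38.p6) were matched for 35 of the 43 genes, 3 of which have 2 promoters, and a gene was counted where any of its promoters held the letters. Both strands were searched for TTTGAA and TTTAAA, the letters of the cell cycle genes homology region (CHR) bound by the MuvB complexes, and for CCAAT, the box bound by NF-Y. TTTGAA or TTTAAA was present in 29 of the 35 genes (82.9%), against 28.1% of 17457 other protein-coding genes. CCAAT was present in 26 (74.3%, against 42.3%), and both together in 24 (68.6%, against 11.4%). Over all 38 promoters, in which the 2 promoters of a gene may share bases, there were 48 TTTGAA or TTTAAA matches, of which 27 began between 75 bases before and 25 bases after the start.

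The promoters of Cdca8, Cdk1, Bub3 and Cenpa are shown, because these genes had the smallest p values in CD44LowKitNeg against CD44Neg among those with a motif; Bub3 has 2 annotated starts and the first is given. Capitals mark the CHR letters and the CCAAT box on either strand (on the other strand the box reads ATTGG, and TTTGAA reads TTCAAA). Cdca8 is at chr4:124936868-124937167 (minus strand), Cdk1 at chr10:69352863-69353162 (minus strand), Bub3 at chr7:131560120-131560419 (plus strand) and Cenpa at chr5:30666636-30666935 (plus strand).
Cdca8: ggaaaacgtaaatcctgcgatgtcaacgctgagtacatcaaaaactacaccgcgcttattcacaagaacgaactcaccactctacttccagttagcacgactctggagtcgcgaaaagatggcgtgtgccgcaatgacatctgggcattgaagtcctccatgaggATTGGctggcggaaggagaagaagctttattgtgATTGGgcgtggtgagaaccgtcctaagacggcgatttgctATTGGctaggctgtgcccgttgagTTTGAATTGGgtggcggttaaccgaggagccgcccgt
Cdk1: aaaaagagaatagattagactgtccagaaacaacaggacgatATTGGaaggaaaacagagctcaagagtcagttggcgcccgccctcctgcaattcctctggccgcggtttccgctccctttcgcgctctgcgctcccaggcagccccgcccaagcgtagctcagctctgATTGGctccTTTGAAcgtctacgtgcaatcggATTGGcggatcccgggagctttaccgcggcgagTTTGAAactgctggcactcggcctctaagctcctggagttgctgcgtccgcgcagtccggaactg
Bub3: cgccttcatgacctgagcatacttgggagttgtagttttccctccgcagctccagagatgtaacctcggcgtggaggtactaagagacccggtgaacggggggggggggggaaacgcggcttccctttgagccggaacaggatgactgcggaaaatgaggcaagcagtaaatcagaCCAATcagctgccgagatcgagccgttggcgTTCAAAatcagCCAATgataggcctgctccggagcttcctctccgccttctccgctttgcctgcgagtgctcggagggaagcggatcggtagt
Cenpa: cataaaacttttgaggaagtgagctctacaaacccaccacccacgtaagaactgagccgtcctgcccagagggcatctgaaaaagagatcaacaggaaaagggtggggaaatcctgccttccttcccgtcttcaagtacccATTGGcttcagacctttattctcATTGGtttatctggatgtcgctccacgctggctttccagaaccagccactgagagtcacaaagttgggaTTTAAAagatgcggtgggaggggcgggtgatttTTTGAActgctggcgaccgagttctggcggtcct
In Cdk1, TTTGAA began 71 and 15 bases before the start, and CCAAT, read on the other strand, 208, 80 and 48 bases before it. Cdca8 held 4 CCAAT boxes, the last of which shares letters with its single TTTGAA after the start. Bub3 held 1 TTTGAA between 2 CCAAT boxes, and Cenpa held 1 TTTAAA, 1 TTTGAA and 2 CCAAT. A match of letters describes these windows and is not evidence of binding.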

How the data were processed

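RNA was amplified from 25 sorted cells per library by SMART-Seq2 and sequenced by the authors, whose methods name FASTX clipping, RNA STAR and htseq-count, and whose processing notes name FastQC, HTSeq and mm10; versions, annotation and strand setting are not given in the sources used here. The deposited table holds raw gene counts, not normalised, for 22 libraries, and every column matched 1 sample. Each of 20 pairs of libraries of 1 population and stage differed by more than counting noise (chi-square per degree of freedom 17 to 85.2).

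Counts were analysed in R 4.3.3 with edgeR 4.0.16: filterByExpr (minimum count 10, minimum total 15), TMM scaling, glmQLFit and glmQLFTest, Benjamini-Hochberg adjustment over all genes tested, calls at an adjusted p under 0.01. CD44LowKitNeg against CD44Neg was fitted on their 16 libraries, the comparisons with CD44LowKitPos or CD44High on all 22, the stage comparison on CD44Neg, and the interaction on E10 and E11 of CD44Neg and CD44LowKitNeg. SEs are the log2 fold change divided by the square root of F. Alternatives used DESeq2 1.42.0, limma 3.58.1 (voom), other scalings, thinning to 3912350 counts, stage as a covariate or single stages, and each library left out. The likeness used log2 CPM with a prior count of 2. Scripts were tested on simulated data. The depth limits a gene without counts to 3 counts per library; this floor covers counting error only.

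The genes, the other lists (mitosis, replication, cohesin, APC/C, DREAM and NF-Y, and markers of endothelial, haematopoietic, macrophage, erythroid, mesenchymal, neural and epithelial cells) and the tests were chosen with earlier results of these data known. Named with fold changes are, in CD44LowKitNeg against CD44Neg, the genes with the smallest and largest p of each role and the 3 other mitosis genes with the smallest p, and elsewhere the 6 genes with the smallest p, plus any called against the majority; genes given for E11 and for E9.5 and E10, positive differences named beside a role, and examples of other lists, were chosen after their values were seen. Figures were drawn with matplotlib.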

Additional observations from a re-analysis of the deposited data

Results flagged for a closer look

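In groups of 4 to 10 libraries, 88 sets of values (43 genes and the summed level in CD44Neg and CD44LowKitNeg) were examined for a library far from the rest of its own group, and 16 were found; this criterion picks about 1 in 20 groups by chance, but the 43 genes vary together, so the sets are not independent. In 15 of them the library was CD44LowKitNeg replicate 14, the only E9.5 library of its population, and it was the highest of the 6. Its values in normalised CPM were 708 for Ccnb1, 14.95 for Cdc25b, 50.4 for Cdc25c, 301 for Tpx2 and 509 for Cdc20. Kinetochore genes were at 285 for Cenpa, 276 for Cenpf and 245 for Ndc80, and Birc5 was at 463. Among the spindle motors and bundling proteins it held 257 of Kif11, 170.5 of Kif20a, 607 of Kif20b, 271 of Kif23, 164 of Kif2c and 438 of Prc1. The last of the 16 was Foxm1, at 27.2 in CD44LowKitNeg replicate 15.

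The difference between CD44LowKitNeg and CD44Neg itself differed between E11 and the earlier stages for Tpx2 (−3.15 in log2) and Smc4 (−1.82). These calls came from the interaction term over 16 libraries, a fit chosen after seeing the data. The planned interaction over 11 libraries called neither gene (smallest adjusted p = 0.0731, for Tpx2, edgeR's quasi-likelihood test).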

How the results depend on the processing

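No paired analysis was run, because the labels do not say which libraries came from the same embryos. The replicate numbers are running sample numbers and hold no information on pairing. In CD44LowKitNeg against CD44Neg, the 0 genes called became 4 at an adjusted p under 0.05 (20.1% of all genes; shares in brackets are of all genes called in the same fit), 1 with DESeq2 (15.9%), 8 with limma-voom (12.4%), 1 with stage as a covariate (11.9%), 5 at E11 (3.41%), 1 higher at E9.5 and E10 (4.15%), and 4 with E9.5 left out (6.73%), a fit added after seeing the data, as were those without the ribosomal transcript Rn45s; leaving out 1 library gave 0 to 11. In CD44High against CD44LowKitNeg the 1 gene became 5 at 0.05 (26.8%), 9 with voom (17.8%), 13 with the covariate (19.5%) and 19 at E11 (15.5%), and 0 to 14 without 1 library. CD44High against CD44Neg gave 1 at 0.05 (22.5%) and 4 with the covariate (14.6%), and 0 without any 1 library. CD44LowKitPos against CD44LowKitNeg gave 0 to 4 without 1 library; the remaining comparisons gave 0 throughout, except the interaction (16 without a filter, where 1.19% of all genes were called, 2 with DESeq2, 1.11%, and 2 over 16 libraries, 0.248%). The alternatives for single stages were also added later: at E11 the 5 genes of CD44LowKitNeg against CD44Neg became 17 at 0.05 (10.9%), 14 without a filter (4.69%), 20 with DESeq2 (11.1%) and 1 to 5 without 1 library, the 19 of CD44High against CD44LowKitNeg became 30 at 0.05 (28.9%) and 29 with DESeq2 (26%), with 13 to 17 without 1 library, and CD44High against CD44Neg gave 2 (17.3%) and 2 (18.3%), and 0 to 1; at E9.5 and E10 the 1 gene became 4 at 0.05 (12.3%) and 3 without a filter (6.87%), and 0 to 1. DESeq2 size factors moved the median of all genes in CD44LowKitPos against CD44LowKitNeg to −0.16. The summed level of CD44High was 8841 without TMM.

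Among those of the 43 genes named with pooled fold changes, direction in the pooled CD44LowKitNeg against CD44Neg changed for Nuf2 (−0.65 voom, −0.016 covariate, −1.05 E11, −0.33 E9.5 left out, −0.22 to 0.32 without 1 library), Smc2 (−0.024 upper quartile, −0.18 voom, −0.0085 thinned, −0.0037 over 22 libraries, −0.60 E11, −0.14 E9.5 left out, −0.25 to 0.17), Ttk (0.033 with DESeq2 size factors, 0.032 with its test, 0.019 without a filter, 0.022 without Rn45s, 0.012 thinned, 0.91 early, −0.66 to 0.25), Ect2 (0.66 early, −0.69 to 0.16), Ccnb2 (0.42 early), Anln (0.39 early), Prc1 (0.52 early), Smc4 (−0.093 voom, −0.87 E11, −0.12 E9.5 left out), Kif20b (−0.15 voom, −0.57 E11, −0.15 E9.5 left out, −0.46 to 0.54 without 1 library) and Nusap1 (−0.039 voom, −1.07 E11, −0.12 E9.5 left out, −0.0080 to 0.70). The cause was not tested where the number of libraries or genes did not change. Depth limits genes with no count in a library, such as Cdc25b in E11 CD44LowKitNeg.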
